A study of Gallus gallus with 24 samples.

Results

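Retinal pigment epithelium (RPE) from E7 chick embryos was compared under 2 stimuli given on opposite sides of the cell layer. The apical stimulus was rcSF3, the serum-free medium SF3 after incubation with neural retinas of E14 embryos. The basal stimulus was serum, with unconditioned SF3 in the apical chamber. Each stimulus was measured on 3 arrays, so the comparison used 6 of the 24 arrays of the series, and all 38439 probe sets that are not controls were examined. The members were chosen by the medium in their labels, with no measured value. RPE of White Leghorn embryos was grown on filters, and all cultures, whatever the stimulus, had the medium SF2, which is SF3 with bovine pituitary extract, in the basal chamber. By the study's methods the cultures were quiescent at harvest, and each biologic repeat was a pool of filters from a single day of plating. The serum was from a single lot, and lots were found in the study to vary in their effects. The other groups used here were E7 cultures in SF3, E7 cultures labelled CM-SER-SER, and the E14 cultures in rcSF3 or with serum, with 3 arrays each. E14 cultures in SF3 and E14 cultures labelled CM-SER-SER, also with 3 arrays each, entered only the estimate of the spread where all 24 arrays were fitted. The code CM-SER-SER names serum and conditioned medium, and it was read as rcSF3 with serum because no other code was left for that medium.

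The RPE is a pigmented epithelium that lies between the photoreceptors and the choroid. Its apical side faces the retina, to which it returns visual chromophore through the retinoid visual cycle, and from which it takes up shed outer segments. Its basal side faces a basement membrane and the choroidal blood supply, from which it takes retinol and glucose. Tight junctions encircle the cells and close the outer blood-retinal barrier. Serum carries growth factors, hormones and lipids, and in these cultures it was given on the side that faces the choroid in the eye.

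The signals were intensities in arbitrary units that the authors had scaled to a common level, and they were compared as log2 values. A difference is the log2 signal in rcSF3 minus the log2 signal with serum, so that 1 means a signal that was 2-fold higher with rcSF3. Differences were tested with limma over the 12 E7 arrays, and a probe set was called when its p value was under 0.05 after Benjamini-Hochberg adjustment over all 38439. Where several probe sets had the same gene symbol, values are those of the brightest. The number of arrays limits the precision of all values. Correlations of the log2 signal over the 19219 brighter probe sets lay between 0.974 and 0.984 within the 2 groups, and between 0.922 and 0.933 across them. The median signal was 97.8 ± 0.757 in rcSF3 and 97.6 ± 2.85 with serum (SD, n = 3 each). The log2 ratio of the 3' over the 5' probe sets of actin, which is higher in degraded RNA, was 0.63 ± 0.10 in rcSF3 and 0.37 ± 0.06 with serum, with an exact permutation p of 0.1, two-sided, the smallest that 3 against 3 arrays can give. The same ratio of GAPDH was -0.068 ± 0.045 in rcSF3 and -0.031 ± 0.036 with serum (exact permutation p = 0.3). The part of RNA quality in the differences was not tested.

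The stimuli gave different signals for 8427 of 38439 probe sets, or 21.9%. Of these, 4508 were higher with rcSF3 (11.7% of all) and 3919 were lower (10.2%). The 3 arrays of each group did not overlap for 13337 probe sets, or 34.7%. Most differences were small. After raising signals under 100 to 100, 1639 called probe sets (4.26%) differed at least 2-fold, 778 higher and 861 lower with rcSF3, while 29 were at least 4-fold higher and 78 at least 4-fold lower. Of 13009 genes with a symbol, 3969 were called, or 30.5%, with 1769 higher (13.6%) and 2200 lower (16.9%), and the groups did not overlap for 43.3%. For 103 genes, different probe sets were called in opposite directions. Of 50 measured genes that the study's text on the arrays names, 20 were higher and 8 lower, but those were chosen on these samples and are no independent evidence. The share called depended on brightness. It was 4.17% of the 19776 probe sets with a mean signal under 100, 45.2% between 300 and 1000, and 71.4% of the 133 probe sets over 20000. The named genes include many dim ones. A share called in a gene list therefore also depended on the brightness of its members. The brightest probe sets were also shifted as a group. Over 20000, the median difference was 0.27 and 93 were called higher and 2 lower, and between 10000 and 20000 the median was 0.16. Quantile normalization, which gives all arrays the same distribution, reduced these medians to 0.030 and 0.020, and of the 133 brightest it left 13 called higher and 15 lower. The highest signal of an array was 42192 to 46989.5 in rcSF3 and 33605 to 39362 with serum. For genes of this brightness a small increase with rcSF3 therefore depended on the normalization.

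**Figure D1:**
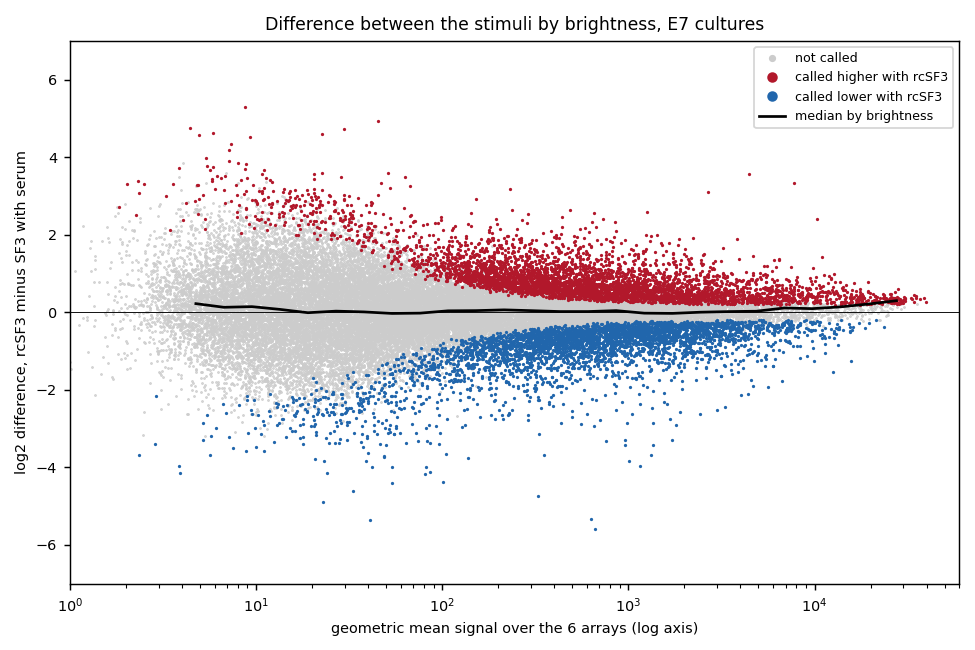
Difference between rcSF3 and SF3 with serum for 38439 probe sets (vertical axis, log2) against the geometric mean signal of the 6 arrays (horizontal log axis, arbitrary units), with called probe sets in red (higher with rcSF3, 4508) and blue (lower, 3919) and the median by brightness as a line. The line stays near 0 until it rises among the brightest signals, where the median reached 0.27 over 20000.

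The pigment genes were mostly higher with the retinal stimulus. Of 18 measured genes of the melanosome and of pigment synthesis, 12 were higher with rcSF3, 3 were lower and 3 were not called, with a median difference of 0.69 against -0.028 over all named genes. TYR encodes tyrosinase, which starts melanin synthesis. Its signals were 16482, 19183 and 18309 in rcSF3, against 9868, 9310.4 and 8213 with serum. All 3 rcSF3 arrays were brighter than any serum array, and the difference was 0.98 (SE 0.083, adjusted p = 1.04e-06). RAB38 and RAB32 encode small GTPases that carry pigment enzymes to melanosomes. RAB38 had signals of 985, 951 and 1192 in rcSF3 and 281, 332 and 208 with serum, a difference of 1.95 (SE 0.24, adjusted p = 2.48e-05), and RAB32 differed by 1.61 (SE 0.15, adjusted p = 2.22e-06). The groups of RAB32 did not overlap. The melanosomal transporter genes OCA2, SLC24A5 and SLC45A2 were higher by 1.13, 1.03 and 0.82. TYRP1, a melanin synthesis enzyme, was higher by 0.51 (0.23 to 0.53 under the alternatives), and GPR143, a receptor of the melanosome membrane, by 0.63. The cation channel gene TRPM1 and the melanosome transport gene RAB27A were higher by 0.74 and 0.80. DCT, the tautomerase of melanin synthesis, had signals of 39792 ± 1675 in rcSF3 and 30890.4 ± 1449 with serum (SD, n = 3 each), and its difference of 0.37 (SE 0.069, adjusted p = 0.00106) became 0.010 after quantile normalization. Against this direction, HPS1, a trafficking gene of lysosome-related organelles, had signals of 798, 704 and 741 in rcSF3 and 1297, 1546 and 1474 with serum, and was lower, at -0.94, with 1 of its 3 probe sets called. MREG, a melanosome transport gene, and PMEL, which forms the fibrils of the melanosome, were lower, at -0.91 and -0.27, and PMEL was not called without replicate 2 of the serum group (adjusted p up to 0.111 over 14 alternatives). In such bulk samples, a change in the number of cells of a type and in the RNA per cell cannot be told apart.

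**Figure D2:**
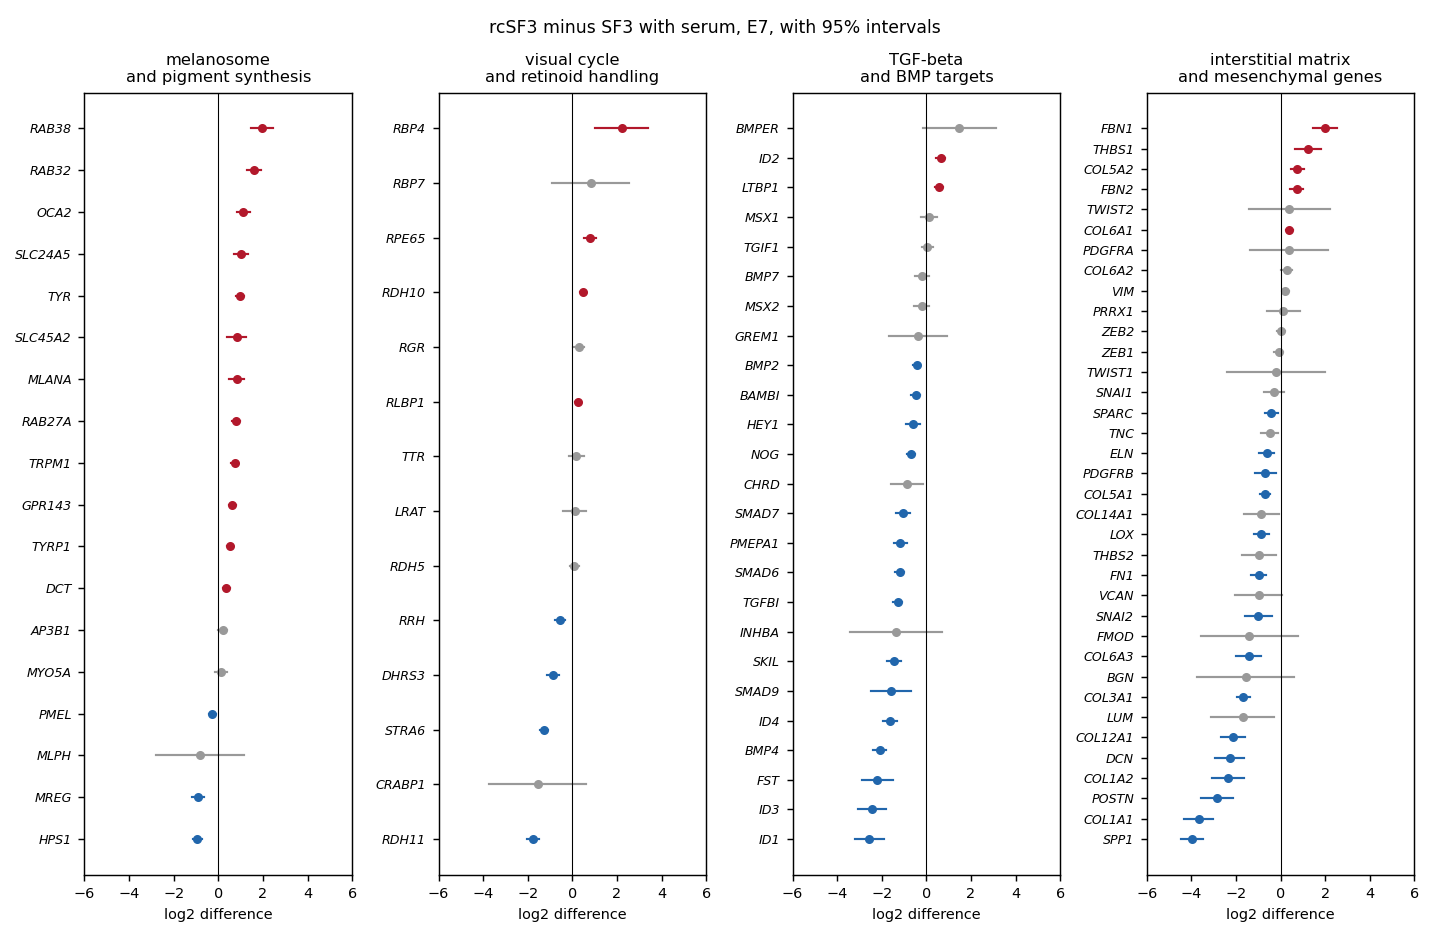
Log2 difference between rcSF3 and SF3 with serum in E7 cultures, with 95% intervals from limma, for the measured members of 4 gene lists (red, called higher with rcSF3; blue, called lower; gray, not called). Most pigment genes lie right of 0, most BMP and TGF-beta targets and COL1A1, COL1A2 and COL3A1 lie left of it, and the visual cycle genes lie on both sides.

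The genes of the visual cycle did not move as a group. Of 14 measured genes that convert, bind or take up retinoids, 4 were higher with rcSF3, 4 lower and 6 not called, with a median of 0.14. RPE65 encodes the isomerohydrolase of the visual cycle. Its signals were 25319, 26945 and 24043 in rcSF3, against 15616, 14929 and 13718 with serum. The groups did not overlap, and the difference was 0.79 (SE 0.12, adjusted p = 0.000193). RDH10, a retinol dehydrogenase, was higher by 0.47 (SE 0.063, adjusted p = 5.89e-05), and by 0.21 to 0.49 under the alternatives. RLBP1, which encodes the retinaldehyde carrier CRALBP, was higher by 0.25 (SE 0.072, adjusted p = 0.0178) but was not called without replicate 1 or 3 of the serum group or replicate 2 of the rcSF3 group, and became -0.075 (adjusted p = 0.404) after quantile normalization. Genes that take up or reduce retinoids were among those lower with rcSF3. STRA6 is the membrane receptor that takes up retinol from its carrier. Its signals were 5938, 7178 and 6111 in rcSF3 and 14281, 16439.6 and 15288 with serum, with a difference of -1.26 (SE 0.088, adjusted p = 2.35e-07). RDH11, a retinal reductase, had signals of 2072, 2769 and 2668 in rcSF3 and 6839, 9665 and 8846 with serum, a difference of -1.75 (SE 0.12, adjusted p = 2.5e-07). The groups did not overlap for either gene, nor for 43.3% of all named genes. DHRS3, which reduces retinal to retinol, was lower, at -0.87, and RRH, the opsin peropsin of RPE microvilli, at -0.54. RBP4, the secreted carrier of retinol, varied between arrays, with 1083, 1380.3 and 563 in rcSF3 and 212, 84.8 and 477 with serum. The difference was 2.21 (SE 0.55, adjusted p = 0.00849), with the call lost under 3 of 14 alternatives. RBP4 was among the 14 largest increases, which were taken only from called genes with no overlap between the groups. LRAT and RDH5 were not called, at 0.10 (95% interval -0.40 to 0.59) and 0.092 (95% interval -0.091 to 0.27).

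Among 14 genes of retinoic acid metabolism and response, 2 were higher with rcSF3 and 5 lower. ALDH1A3, which makes retinoic acid, had signals of 656, 575 and 524 in rcSF3 and 2395, 1621 and 1713 with serum, a difference of -1.69 (SE 0.26, adjusted p = 0.000185). Its relative ALDH1A2 differed in the other direction, with 283, 237 and 191 in rcSF3 and 113, 88.6 and 92.9 with serum, and was higher by 1.26. The receptor genes RXRG and RARA were lower, at -1.96 and -1.07, with the call of RARA lost without replicate 3 of either group (adjusted p up to 0.0924 over 14 alternatives), while RARB was not called at -0.03. TGM2, a transglutaminase induced by retinoic acid in other cells, was higher by 0.73. The list holds dim genes, since 4 of the 14 had mean signals under 100 in both groups.

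Of 14 transcription factors of the eye field and the RPE, 2 were higher and 6 lower with rcSF3, with 3 lower without replicate 3 of the rcSF3 group and 2 lower without the mean-variance trend or without moderation. TFEC, a relative of MITF, had signals of 235, 484 and 631 in rcSF3 and 60.5, 88.7 and 31.6 with serum. The difference was 2.91 (SE 0.40, adjusted p = 7.4e-05), or 2.05 with signals under 100 raised to 100. LHX2 was higher by 0.44. PAX6, SIX3 and NR2F2 were lower, at -0.66, -0.63 and -0.67, with the call of PAX6 lost under 2 of 14 alternatives (adjusted p up to 0.0596). The RPE determinants OTX2 and MITF were not called, with differences of 0.11 (95% interval -0.057 to 0.27) and -0.08 (95% interval -0.34 to 0.18), both intervals inside 1.5-fold. Over the 14 measured genes that mark RPE, 7 were higher and 3 lower with rcSF3 (71.4% called, against 30.5% of all named genes). Of the 14, 0 had mean signals under 100 in both groups, and several were very bright. Among all probe sets, 54.7% were called at mean signals of 10000 to 20000 and 71.4% over 20000. Several of the 14 markers, such as TYR, RPE65 and OTX2, were already counted in the lists above, so this count is not separate from them. Under quantile normalization 5 were higher and 3 lower. Without replicate 1 or 2 of the serum group or replicate 3 of the rcSF3 group, 0 or 1 were lower. BEST1, which encodes bestrophin, was lower, at -0.46 to -0.25 under the alternatives. Its call was lost under 8 of 14 (adjusted p up to 0.195).

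Genes for the uptake of outer segments differed in both directions, with 5 of 19 higher and 4 lower, and 3 higher without replicate 1 of either group. Of the 19, 47.4% were called, against 30.5% of all named genes. SCARB1, a scavenger receptor for lipoproteins, had signals of 7598, 7335 and 7197 in rcSF3 and 18663, 23858 and 22653 with serum. The groups were far apart, with a difference of -1.55 (SE 0.10, adjusted p = 6.47e-08). The bridging ligand MFGE8 and the integrin subunit ITGB5, part of a receptor that binds outer segments, were lower, at -0.63 and -0.83. Its partner subunit ITGAV was higher by 0.62. The kinase gene MERTK, which triggers ingestion, was higher by 0.30 (SE 0.094, adjusted p = 0.0332), a call lost under 7 of 14 alternatives that included leaving out any serum replicate (adjusted p up to 0.109). MYO7A and PTK2 were not called, with 95% intervals of -0.19 to 0.24 and -0.18 to 0.17.

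**Figure D3:**
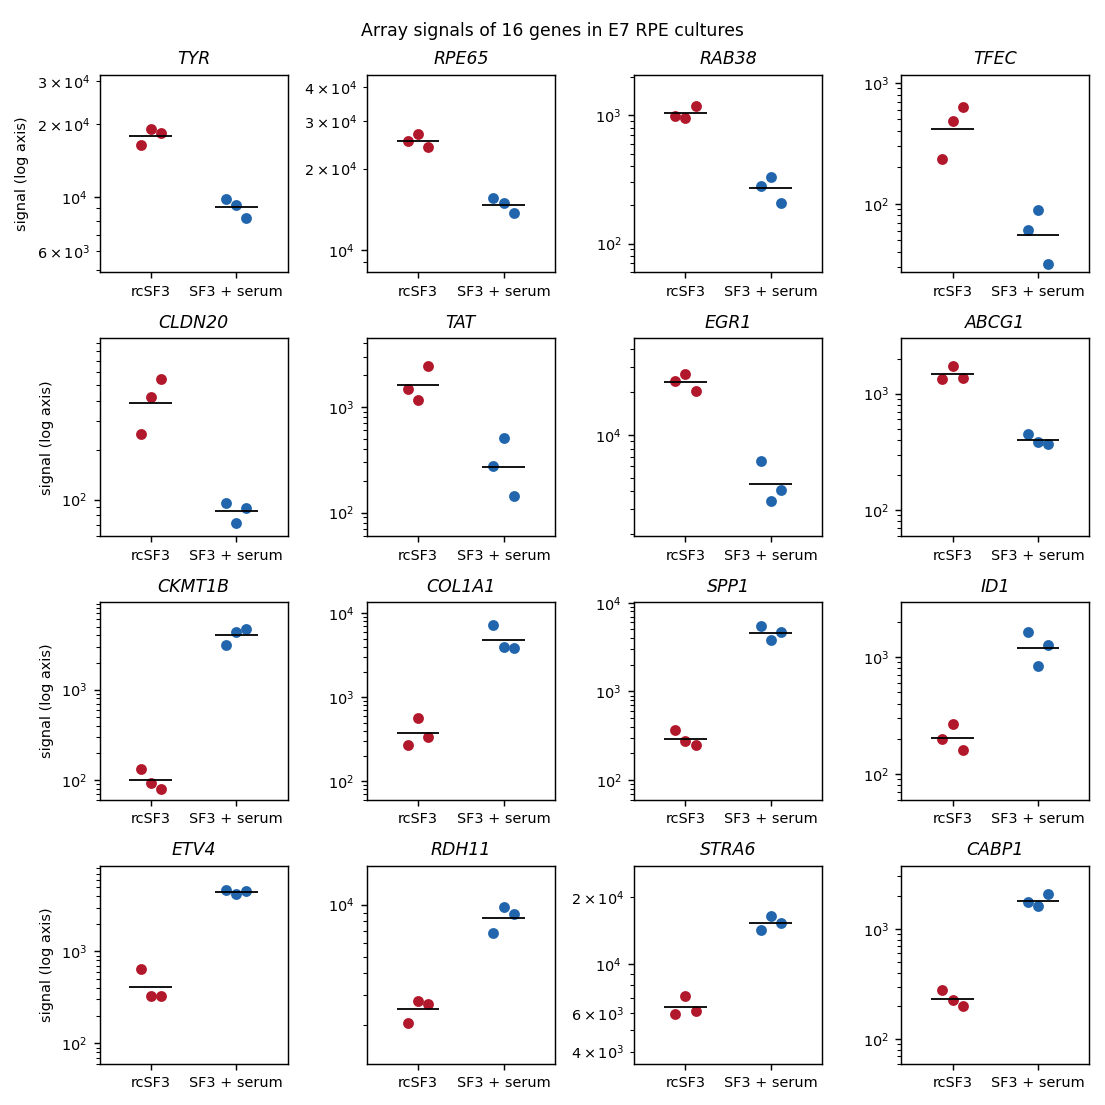
Signals of 16 genes on the 3 rcSF3 arrays (red, left) and the 3 serum arrays (blue, right) of E7 cultures, on log axes in arbitrary units, with the geometric mean as a line. The 2 groups did not overlap in any of the 16 genes, nor in 43.3% of all named genes. Many of the 16 are from the largest changes, which were taken only from genes without overlap, so this is no support. The first 8 were higher with rcSF3 and the last 8 lower.

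Adaptor and polarity proteins of the junctions were among the groups with more members higher with rcSF3. Of 23 measured, 9 were higher, 2 lower and 12 not called, and the counts under the alternatives were 9 to 10 higher and 2 to 3 lower. The called share was 47.8%, against 30.5% of all named genes. Of the 23, 0 had mean signals under 100 in both groups. Among all probe sets, 45.2% were called at mean signals of 300 to 1000 and 51.7% at 1000 to 3000, so the list's share was near that of such bright probe sets. TJP1 encodes ZO-1, which links tight junctions to actin. Its signals were 1479.9, 1734 and 1488 in rcSF3 and 956, 1009 and 877 with serum, a difference of 0.72 (SE 0.12, adjusted p = 0.000321) with no overlap. AFDN, the afadin of adherens junctions, differed by 1.08 (SE 0.19, adjusted p = 0.000593). The polarity genes PARD6B, PARD3 and PARD6G were higher by 1.37, 0.35 and 0.36, and CDC42, their GTPase partner, by 0.56. The scaffold genes MAGI3, MPP5 and DLG1 were higher by 0.80, 0.68 and 0.42. TJP3, which encodes ZO-3, and AMOTL2, an angiomotin, were lower, at -0.68 and -1.36.

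Of 21 measured membrane proteins of the junctions, 3 were higher and 2 lower with rcSF3 (1 to 2 lower under the alternatives), and 9 had mean signals under 100 in both groups. The called share of 23.8% was under the 30.5% of all named genes. CLDN20, a claudin, had signals of 252, 422 and 542 in rcSF3 and 95.8, 71.6 and 89.3 with serum, a difference of 2.19 (SE 0.32, adjusted p = 0.000144). All serum signals were under 100, and with signals raised to 100 the value was 1.95, and 1 of its 2 probe sets was called. CLDN12 was higher by 0.96 (SE 0.22, adjusted p = 0.00532), and the gap junction gene GJA1 by 0.62 (SE 0.076, adjusted p = 2.85e-05). MARVELD3, a tight junction protein, was lower, at -0.54, and OCLN, which encodes occludin, at -0.74 (adjusted p = 0.048), a call that was lost under 9 of 14 alternatives (adjusted p up to 0.197). CLDN1, CLDN2 and CLDN5 were not called, at -0.22, -0.27 and 0.21, with 95% intervals of -0.83 to 0.39, -0.54 to -0.011 and -0.08 to 0.51. Of 25 cadherins and catenins, 2 were higher and 5 lower, a called share of 28%, also under that of all named genes. CDH11, a cadherin of mesenchymal cells, had signals of 97.9, 127 and 59.1 in rcSF3 and 452, 317 and 317 with serum, and was lower, at -1.98. CDH4 was higher by 0.56, and JUP, the plakoglobin of adherens junctions and desmosomes, lower, at -0.78. CTNNB1, which encodes β-catenin, was not called, at 0.095 (95% interval -0.061 to 0.25).

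Channels and transporters showed no common direction. Of 22 potassium channel genes, 5 were called, all lower with rcSF3, or 22.7% against 30.5% of all named genes. Mean signals of 14 were under 100 in both groups. The number lower was 2 to 7 under the alternatives. It was 2 or 3 without replicate 2 or 3 of the serum group or replicate 1 or 2 of the rcSF3 group. KCNK2, a two-pore channel, had signals of 168, 144 and 119 in rcSF3 and 616, 525 and 586 with serum, a difference of -2.01 (SE 0.17, adjusted p = 1.36e-06). Among 27 genes for chloride, sodium and bicarbonate transport, 1 was higher and 7 lower, a called share of 29.6%. Without replicate 1 or 2 of the serum group or replicate 1 or 3 of the rcSF3 group, 4 were lower. The one that was higher, CA2, a carbonic anhydrase, had signals of 38188, 32568 and 32491 in rcSF3 and 21241, 23611 and 23576 with serum. Its difference was 0.30 to 0.63 under the alternatives. The anion exchanger SLC4A2, the carbonic anhydrase CA14 and the sodium pump subunit ATP1B1 were lower, at -1.39, -1.93 and -0.40. The cotransporter gene SLC12A2 was not called, with a 95% interval of -0.20 to 0.23. Of 24 carriers of glucose and monocarboxylates, 7 were higher and 1 lower (4 to 7 and 0 to 2 under the alternatives), and under quantile normalization 4 were higher and 2 lower. The called share of 33.3% was near that of all named genes. The glucose transporter SLC2A12 was higher by 0.99 (SE 0.15, adjusted p = 0.00022). The bright gene SLC2A1, whose product GLUT1 carries glucose from the blood, was not called at 0.052, and after quantile normalization it was lower, at -0.16 (adjusted p = 0.0487). SLC16A8, a lactate carrier of the RPE, was higher by 0.36 (SE 0.076, adjusted p = 0.00281), and this call was lost after quantile normalization at 0.14 (adjusted p = 0.114). Amino acid carriers were higher in 8 and lower in 4 of 25 genes (48% called, against 30.5% of all named genes). SLC7A11, which exchanges cystine for glutamate, had signals of 389, 309.8 and 360.1 in rcSF3 and 121, 127 and 89.3 with serum, a difference of 1.66 (SE 0.23, adjusted p = 7.18e-05). The cationic carrier SLC7A1 and the large neutral carrier SLC7A5 were higher by 0.94 and 0.63. SLC6A8 and SLC6A9, carriers of creatine and glycine, were lower, at -1.40 and -0.69.

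**Figure D4:**
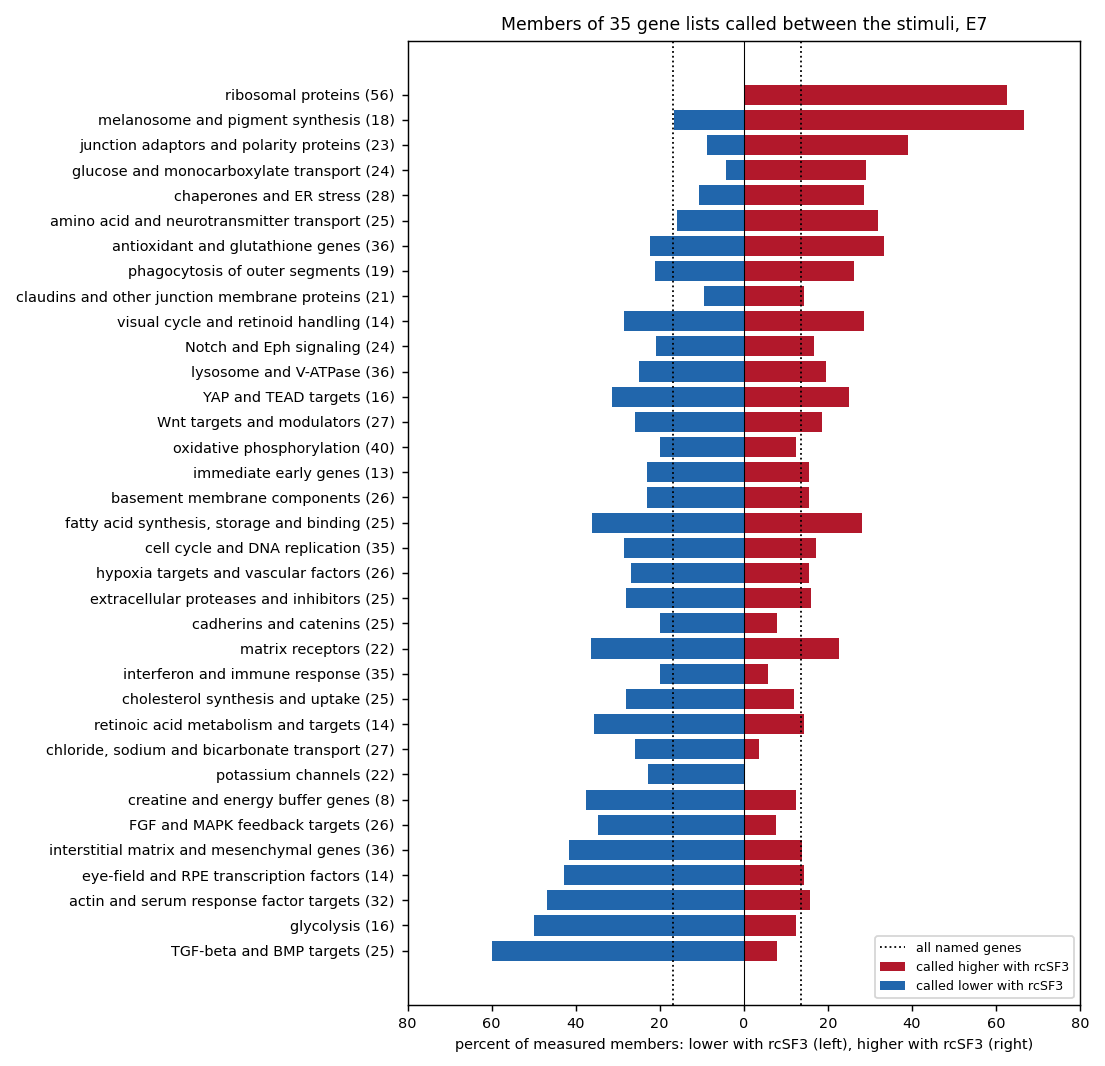
Percent of the measured members of 35 gene lists that were called lower (blue, left) or higher (red, right) with rcSF3 in E7 cultures, with the number measured in parentheses and the same percent over all named genes as dotted lines (16.9 lower, 13.6 higher). Lists are ordered by the excess of higher over lower members. The top bar, ribosomal proteins, depended on the normalization, with 35 of 56 higher as deposited and 8 after quantile normalization.

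The targets of BMP and TGF-beta signaling had the largest share of lower members among the 35 lists of gene functions. Of 25 measured, 15 were lower with rcSF3, 2 higher and 8 not called, with a median of -0.88, and 13 to 16 were lower under the alternatives. The ID genes encode inhibitors of basic helix-loop-helix factors and are direct BMP targets. ID1 had signals of 199.6, 265 and 160.5 in rcSF3, against 1634, 839 and 1274 with serum, a difference of -2.56 (SE 0.30, adjusted p = 1.74e-05). ID3 had 1411, 2474 and 831 in rcSF3 and 7746, 7229 and 8317 with serum, a difference of -2.44 (SE 0.30, adjusted p = 2.38e-05). ID4 was lower, at -1.64. The groups did not overlap for these 3 genes, nor for 43.3% of all named genes. ID2 went the other way, with 12237, 13188 and 15507 in rcSF3 and 8997, 8423 and 8659.7 with serum, and was higher by 0.64. The inhibitory SMAD genes SMAD6 and SMAD7 were lower, at -1.21 and -1.05, and the ligand genes BMP4 and BMP2 at -2.10 and -0.45. The secreted antagonists FST and NOG were lower, at -2.20 and -0.71. TGFBI, SKIL and PMEPA1, targets of TGF-beta, were lower, at -1.29, -1.46 and -1.18. LTBP1, which stores latent TGF-beta in the matrix, was higher by 0.56.

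Feedback targets of FGF and MAPK signaling were lower in 9 and higher in 2 of 26 genes, with a median of -0.37. Of the 26, 42.3% were called, against 30.5% of all named genes. The ETS factor gene ETV4 had signals of 650.0, 327 and 330.4 in rcSF3 and 4618, 4156 and 4518 with serum. The difference was -3.42 (SE 0.19, adjusted p = 2.37e-08). ETV4 was among the 14 largest decreases, which were taken only from called genes with no overlap between the groups. DUSP6, a phosphatase that switches off ERK, had 1356, 919.6 and 750.4 in rcSF3 and 3830.3, 3439 and 4478 with serum, a difference of -1.99 (SE 0.16, adjusted p = 6.57e-07). Its relative DUSP5 was lower, at -1.18, the factor ETV5 at -1.28, the inhibitor SPRED1 at -1.35 and the receptor FGFR1 at -1.21. SPRY2, another feedback inhibitor, was lower, at -0.52, and was not called without replicate 3 of the rcSF3 group (adjusted p up to 0.0596 over 14 alternatives). The receptor gene FGFR3 and the cyclin gene CCND1 were higher by 0.25 and 0.29, but CCND1 lost the call under 10 of 14 alternatives (adjusted p up to 0.152) and FGFR3 under 5 (adjusted p up to 0.121). Without replicate 2 or 3 of the serum group or replicate 2 of the rcSF3 group neither was called.

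Of 27 Wnt targets and modulators, 5 were higher and 7 lower with rcSF3 (44.4% called, against 30.5% of all named genes). The secreted modulator DKK3 had signals of 7856, 7919 and 7138 in rcSF3 and 4109, 3655 and 3751 with serum, a difference of 0.99 (SE 0.12, adjusted p = 3.02e-05). The antagonists SFRP2 and FRZB were lower, at -0.98 and -0.89, while SFRP1 was higher by 0.42. The receptors FZD5 and FZD8 were lower, at -1.04 and -0.82. AXIN2, a direct target of β-catenin, was higher by 0.55 (SE 0.14, adjusted p = 0.0115), and was not called without replicate 3 of the rcSF3 group (adjusted p = 0.06). In the Notch and Eph list, 4 of 24 were higher and 5 lower. This called share of 37.5% was not far above the 30.5% of all named genes. Without replicate 2 of the serum group or replicate 3 of the rcSF3 group, 3 were lower. The receptor EPHA3 had signals of 1249.9, 1137 and 1304 in rcSF3 and 616, 478 and 343 with serum, a difference of 1.40 (SE 0.17, adjusted p = 2.21e-05), and EPHA5 was higher by 0.95. The receptors EPHB2 and EPHB3 were lower, at -0.82 and -0.57, and the ligand EFNB2 was higher by 0.98. NOTCH1 and NOTCH2 were not called, with 95% intervals of -0.21 to 0.19 and -0.20 to 0.12.

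Immediate early genes, which respond first to growth factors, were higher in 2 and lower in 3 of 13 genes. The called share was 38.5%, against 30.5% of all named genes. Only 1 was higher without any 1 of the serum replicates or replicate 1 or 2 of the rcSF3 group. EGR1 encodes a zinc finger factor. Its signals were 24053, 26814 and 20305 in rcSF3, against 6488, 3443 and 4063 with serum, a difference of 2.39 (SE 0.17, adjusted p = 2.8e-07). BTG2 and KLF2 were lower, at -1.26 and -1.46, and the phosphatase gene DUSP1 at -0.68. FOS was under 100 in both groups, and JUN was not called at -0.22. Of 16 targets of YAP and TEAD, 4 were higher and 5 lower. CCN2, a secreted target, was higher by 0.36 (SE 0.064, adjusted p = 0.000696) but was not called after quantile normalization, at 0.073 (adjusted p = 0.384), while YAP1 was higher by 1.09 (SE 0.19, adjusted p = 0.000653) and TGFB2 lower, at -2.26.

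More interstitial matrix and mesenchymal genes were lower than higher with rcSF3, and several of them were among the 14 largest decreases. Of 36 measured, 15 were lower, 5 higher and 16 not called, with a median of -0.69. The list also holds genes that do not encode matrix, such as VIM, ZEB1 and ZEB2. COL1A1 encodes a chain of type I collagen. Its signals were 267, 573 and 338 in rcSF3, against 7160.2, 3919 and 3839 with serum, a difference of -3.67 (SE 0.31, adjusted p = 1.02e-06). The partner chain COL1A2 was lower, at -2.37, COL3A1 at -1.68 and COL12A1 at -2.14. SPP1, which encodes osteopontin, had 368, 276 and 246 in rcSF3 and 5419, 3795 and 4661 with serum, and POSTN, periostin, had 310.0, 864 and 469 in rcSF3 and 5193, 2730.0 and 3428 with serum. They were lower, at -3.97 and -2.86. Fibronectin, FN1, was lower, at -0.98, and the crosslinking enzyme LOX at -0.87. In contrast, the microfibril gene FBN1 had 396, 670.0 and 464 in rcSF3 and 164, 135 and 90.2 with serum, and was higher by 1.98, with 1 of its 3 probe sets called. FBN2, THBS1 and COL5A2 were higher by 0.71, 1.23 and 0.75.

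Markers of fibroblasts and choroid stroma overlap with these matrix genes. Of 16 measured, 7 were called, all lower with rcSF3, a share of 43.8% against 30.5% of all named genes. The other 9 were not called, and 7 of the 16 had mean signals under 100 in both groups. The summed signal of the 16 was 2984 to 5448 in rcSF3 and 13854 to 22097 with serum, and most of it came from COL1A1, COL1A2, COL3A1 and POSTN, which also belong to the matrix list. DCN, decorin, had signals of 68.6, 116 and 80.4 in rcSF3 and 494, 351 and 428 with serum, and FOXD1, a factor of stromal progenitors, was lower, at -0.55. PDGFRA, TWIST1, TWIST2, FAP and OGN, further markers of such cells, had mean signals under 100 in both groups, although 0 marker genes had a signal of 0 on any of the 6 arrays. Whether stromal cells had a part in the matrix differences was not tested. Of 15 endothelial markers 1 was called, lower, and of 13 muscle markers 3 were called, all lower, and both shares were under the 30.5% of all named genes. Blood and macrophage markers were higher in 3 and lower in 1 of 13, a called share of 30.8%, near that of all named genes. Of the 13, 7 had mean signals under 100 in both groups. With signals raised to 100, 0 were higher, and 1 was higher without replicate 1 or 3 of the rcSF3 group. Muller glia markers were higher in 1 and lower in 3 of 11 (36.4% called), over alternatives 0 to 2 and 2 to 3.

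Basement membrane components were higher in 4 and lower in 6 of 26 genes (38.5% called, against 30.5% of all named genes). HSPG2, the perlecan core protein, had signals of 555, 527 and 457 in rcSF3 and 1684, 1340.0 and 1489.5 with serum, a difference of -1.55 (SE 0.11, adjusted p = 2.35e-07). COL18A1, AGRN and LAMA5 were lower, at -1.19, -0.61 and -0.60, while the type IV collagen genes COL4A6 and COL4A2 were higher by 1.01 and 0.63. LAMC1, shared by most laminins, was not called, with a 95% interval of -0.20 to 0.092. Of 22 matrix receptors, 5 were higher and 8 lower. CD44, a hyaluronan receptor, was higher by 0.86 (SE 0.11, adjusted p = 5.31e-05), and the integrin subunits ITGA3 and ITGA4 were lower, at -0.98 and -2.39. The proteases MMP2 and MMP15 had the lowest p values among 25 proteases and inhibitors, of which 4 were higher and 7 lower. MMP2 had 184, 275 and 143 in rcSF3 and 1415, 1254 and 1161 with serum, and was lower, at -2.72, and MMP15 was lower, at -1.87. RECK, an inhibitor of such enzymes, was higher by 0.89.

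Contractile and serum response factor genes were lower in 15 and higher in 5 of 32. TAGLN, a smooth muscle actin-binding protein, had signals of 319, 578 and 381 in rcSF3 and 2364, 1954 and 1909 with serum, a difference of -2.33 (SE 0.27, adjusted p = 1.97e-05). CSRP1, CNN2 and TPM2 were lower, at -1.91, -1.68 and -1.58, and SRF itself at -0.54. FHL1, a LIM-domain protein of muscle, went against the group, with 1738, 1952 and 1409 in rcSF3 and 382, 232 and 362 with serum, a difference of 2.41 (SE 0.17, adjusted p = 2.92e-07). The other probe set of FHL1 was not called. VIL1, which encodes the microvillus protein villin, was higher by 0.87 (SE 0.10, adjusted p = 1.32e-05), and MYLK by 0.79. ACTB was not called at -0.11 and was lower after quantile normalization, at -0.35 (adjusted p = 0.000276), while ACTG1, higher by 0.33, was not called after it, nor without replicate 1 of either group.

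Of 16 glycolysis genes, 8 were lower and 2 higher with rcSF3, with a median of -0.33, and 0 to 2 were higher under the alternatives. CKMT1B encodes the ubiquitous mitochondrial creatine kinase. Its signals were 131, 92 and 79.1 in rcSF3, against 3113, 4328 and 4736 with serum. The difference was -5.34 (SE 0.19, adjusted p = 4.34e-10), or -5.19 with signals under 100 raised to 100. Of 8 creatine and energy buffer genes, 1 was higher and 3 lower, with a median of 0.024. Among the glycolysis genes, ENO2, the neuronal enolase, had 621, 346 and 229 in rcSF3 and 1977, 3435 and 2769 with serum, and was lower, at -2.86. PFKL and HK1 were lower, at -1.11 and -1.11, and PGAM1 and TPI1 at -0.55 and -0.44. LDHA and GAPDH were higher by 0.36 and 0.25, and neither was called after quantile normalization, nor was GAPDH without replicate 1 of the serum group. Of 40 genes of oxidative phosphorylation, 5 were higher and 8 lower, with 27 not called. The called share of 32.5% was near the 30.5% of all named genes, which include many dim ones. Of the 40, 0 had mean signals under 100 in both groups. Among all probe sets, 51.7% were called at mean signals of 1000 to 3000 and 51.1% at 3000 to 10000. The list's share was under both. Without replicate 2 or 3 of the serum group, 6 were higher and 5 lower. NDUFV1 was lower, at -0.87, and UQCRB was higher by 1.01.

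Lipid genes differed in both directions. Of 25 genes for fatty acid synthesis, storage and binding, 7 were higher and 9 lower. The fatty acid binding protein genes FABP7 and FABP3 had the largest differences of the list once signals under 100 were raised to 100. FABP7 had 1404, 1276 and 519 in rcSF3 and 6158, 5139 and 6814 with serum, a difference of -2.62 (SE 0.30, adjusted p = 1.67e-05), and FABP3 was lower, at -2.66, or at -2.30 with signals raised to 100. FABP5 was lower, at -1.02. FADS2 and FASN, enzymes of fatty acid synthesis, were lower, at -0.70 and -0.49. The oxidation genes PPARA and CPT1A were higher by 0.93 and 0.90. Of 25 genes of cholesterol synthesis and uptake, 3 were higher and 7 lower (40% called, against 30.5% of all named genes). Of the 25, 2 had mean signals under 100 in both groups. Among all probe sets, 45.2% were called at mean signals of 300 to 1000 and 51.7% at 1000 to 3000, and the list's share was under both. ABCG1, which exports cholesterol, had 1341, 1721 and 1354 in rcSF3 and 449.9, 381 and 369 with serum, a difference of 1.88 (SE 0.17, adjusted p = 2.04e-06). SREBF2, the factor that drives the pathway, and the enzymes SC5D and LSS were lower, at -0.80, -1.09 and -0.76.

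Ribosomal protein genes are very bright and depended on the normalization. As deposited, 35 of 56 were called, all higher with rcSF3, with a median of 0.25. After quantile normalization, 8 were higher and 6 lower, with a median of 0.037. RPL4, the member with the lowest p, was 24096, 22938 and 23653 in rcSF3 and 15512, 16540.1 and 16310.2 with serum, a difference of 0.55 (SE 0.07, adjusted p = 3.78e-05). Of 36 antioxidant genes, 12 were higher and 8 lower as deposited, and 6 were higher and 8 lower after quantile normalization. The number higher also fell under other alternatives. It was 6 without the mean-variance trend, and 8 with signals raised to 100, without moderation, or without replicate 2 or 3 of the rcSF3 group. GPX3, a secreted glutathione peroxidase, was lower, at -1.34 (SE 0.10, adjusted p = 2.8e-07), and GSTA4 higher by 0.89 (SE 0.13, adjusted p = 0.000103). Of 28 chaperone and ER stress genes, 8 were higher and 3 lower (39.3% called, against 30.5% of all named genes). Of the 28, 1 had mean signals under 100 in both groups. Among all probe sets, 45.2% were called at mean signals of 300 to 1000 and 51.7% at 1000 to 3000, and the list's share was under both. Without any 1 of the serum replicates or replicate 2 of the rcSF3 group, 1 of the chaperone and ER stress genes was lower. Without replicate 1 of the rcSF3 group 5 were lower. CALR, calreticulin, was lower, at -1.07, and DNAJB9 and HSP90AA1 were higher by 0.84 and 0.50. Of 36 lysosome and proton pump genes, 7 were higher and 9 lower (4 higher without replicate 1 or 2 of the rcSF3 group). Their called share was 44.4%, against 30.5% of all named genes, and 1 of the 36 had mean signals under 100 in both groups. The protease gene TPP1 was lower, at -1.25 (SE 0.075, adjusted p = 5.01e-08). Cathepsin D, CTSD, was not called at -0.083.

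Cell cycle genes were higher in 6 and lower in 10 of 35, but higher in 4 and lower in 4 without replicate 3 of the serum group, and lower in 6 without replicate 1 of either group. Of the 35, 45.7% were called, against 30.5% of all named genes. RRM1, a ribonucleotide reductase subunit, was higher by 0.90 (SE 0.13, adjusted p = 0.000109), and the mitotic kinase CDK1 was lower, at -0.74 (SE 0.13, adjusted p = 0.00081). CDKN1A, the cell cycle inhibitor p21, was also lower, at -1.33. MKI67, a proliferation marker, had mean signals under 100 in both groups. Among 35 genes of interferon and immune responses, 2 were higher and 7 lower (25.7% called, against 30.5% of all named genes). The decoy receptor IL13RA2 had signals of 274, 312 and 222 in rcSF3 and 4488, 3305 and 3781 with serum, a difference of -3.84 (SE 0.15, adjusted p = 9.09e-10). CCL4, a chemokine, had 186, 277 and 167 in rcSF3 and 1510.0, 1813 and 1296 with serum, and was lower, at -2.90. The chemokine CXCL12 was higher by 0.86 (SE 0.085, adjusted p = 4.2e-06). Of 26 hypoxia targets and vascular factors, 4 were higher and 7 lower, but 3 or 4 were lower without any 1 of the serum replicates or without replicate 3 of the rcSF3 group. EPAS1, which encodes HIF-2α, and SEMA3C, a guidance cue for vessels and axons, were higher by 0.67 and 1.13. VEGFA was lower, at -0.35 (adjusted p = 0.0443), and this call was lost under 9 of 14 alternatives (adjusted p up to 0.208).

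Retinal genes were also measured in these cultures. Of 19 photoreceptor markers, 5 were called (26.3%, against 30.5% of all named genes), all lower with rcSF3, with 10 under 100 in both groups. The number lower was 3 without any 1 of the serum replicates or without replicate 1 of the rcSF3 group. GNAT2, the cone transducin, had signals of 544, 281 and 300.2 in rcSF3 and 2158, 1623 and 2429 with serum, a difference of -2.51 (SE 0.22, adjusted p = 1.42e-06). PDE6H, a cone phosphodiesterase subunit, had 11.5, 95.4 and 88.5 in rcSF3 and 707, 228 and 289 with serum. The summed signal of the 19 markers was 2213 to 2374 in rcSF3 and 4403 to 5589 with serum, and a large part of the serum sum came from GNAT2. The markers AIPL1 and ARR3 were not called, at 0.045 (95% interval -0.46 to 0.55) and -0.14 (95% interval -0.58 to 0.29), both intervals inside 1.5-fold. Rod transducin, GNAT1, and the interphotoreceptor protein gene RBP3 had mean signals under 100 in both groups. The part of retinal cells in these differences was not tested. Of 21 markers of retinal neurons, 2 were higher and 2 lower (19% called), over alternatives 1 to 3 each. VSX1, a factor of bipolar cells, had 482, 606 and 567 in rcSF3 and 2979, 1598 and 2780.0 with serum, a difference of -2.11 (SE 0.23, adjusted p = 1.07e-05), while CALB2, calretinin, was higher by 1.32 (SE 0.14, adjusted p = 5.73e-06).

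Besides the genes above, the 14 largest increases by the rule held 6 genes of other groups. UNC93A had signals of 701, 722 and 665 in rcSF3 and 84.5, 139.8 and 37.8 with serum, a difference of 3.19 (SE 0.36, adjusted p = 1.41e-05), and 2 of its 4 probe sets were called. TAT, the tyrosine aminotransferase of the liver, had 1468, 1158 and 2415 in rcSF3 and 274, 503 and 143 with serum, and was higher by 2.57. HMMR, a hyaluronan receptor, PHYHIPL and TSPAN9, a tetraspanin, were higher by 2.32, 2.54 and 1.93. NTN4L was higher by 2.08. Among the 14 largest decreases, CYP24A1, which breaks down active vitamin D, had 75.5, 75.9 and 45.2 in rcSF3 and 3007, 1140.0 and 1431 with serum, a difference of -4.74 (SE 0.41, adjusted p = 1.31e-06). DIO3, which inactivates thyroid hormone, had 447, 827 and 450.2 in rcSF3 and 6343, 3983 and 6119 with serum, a difference of -3.29 (SE 0.27, adjusted p = 8.52e-07). ABI3, an adaptor of actin nucleation complexes, G0S2, an inhibitor of lipolysis, and PHOSPHO1, a phosphatase of mineralizing bone, were lower, at -3.44, -3.30 and -2.86. The neuronal genes CABP1 and NPTX2, a calcium-binding protein and a synaptic pentraxin, were lower, at -2.95 and -2.90, with 1 of 3 probe sets called for CABP1 and all 3 for NPTX2.

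The signals in the other E7 media placed these genes in different patterns. Of the 14 largest decreases, 6 had a mean in SF3 that was nearer to rcSF3 and a mean in CM-SER-SER that was nearer to serum. CKMT1B was such a gene, with 145 ± 25.6 in SF3 and 4283 ± 459 in CM-SER-SER (SD, n = 3 each), and COL1A1 was another, with 476 ± 193 and 1864 ± 500.1. For 7 others the order was reversed. IL13RA2 had 7517 ± 1388 in SF3 and 326 ± 41.5 in CM-SER-SER, and NPTX2 had 6069 ± 976 and 409 ± 109. POSTN, the last of the 14, was nearer to serum in both media. The 14 largest increases were spread over all 4 patterns. No margin was set for nearer, and some genes lay near the middle. The 2 increases nearer to serum in both media were CLDN20 and RAB38. Their log2 means were 7.425 and 8.97 in CM-SER-SER, against 8.594 and 10.019 in rcSF3 and 6.408 and 8.071 with serum. TAT had 40.2 ± 11.7 in SF3 and 824 ± 168 in CM-SER-SER, while FHL1 had 844 ± 105 and 544 ± 48.2, and EGR1 had 17461 ± 2081 and 13484 ± 375. These are levels side by side, and no test was made between them.

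The absence of a call does not show that 2 signals were alike, so intervals were examined. Of all probe sets, 6852 had a 95% interval inside 1.5-fold in either direction, 1114 of them with a call, and all of them belonged to the 19219 brighter ones. Among the 971 genes of the lists, 553 were not called. Of these, 207 had such an interval and 210 had mean signals under 100 in both groups. Genes held within 1.5-fold included the lysosome membrane genes LAMP1 (-0.18 to 0.17) and NPC1 (-0.041 to 0.24), the taurine carrier SLC6A6 (-0.22 to 0.16) and the receptor gene AXL (-0.15 to 0.22).

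The same 2 stimuli were compared in E14 cultures to see which differences were particular to E7. With rcSF3 against serum at E14, 5565 probe sets were called (14.5%), 2982 higher and 2583 lower. At both ages 3908 were called, which is 46.4% of the E7 calls and 70.2% of the E14 calls, and 3867 of them had the same direction. The difference between the ages was tested over all 24 arrays, and 535 probe sets (1.39%) passed, of which 236 were higher and 299 lower at E7. Of these, 430 had the larger difference at E7. The number that passed was 237 without replicate 3 of the E7 serum group, 279 and 353 without replicates 2 and 1 of the E14 rcSF3 group, and 289 and 323 without replicates 2 and 3 of the E14 serum group. Among named genes 280 passed (2.15%). UNC93A differed by 3.19 at E7 and -0.064 at E14, an age difference of 3.25 (SE 0.53, adjusted p = 0.00243). FHL1 differed by 2.41 at E7 and 0.30 at E14, an age difference of 2.11 (SE 0.26, adjusted p = 0.000129). SLC7A11 and NINJ2, an adhesion gene of nerve and immune cells, were higher with rcSF3 at E7, by 1.66 and 1.30, and had values of -0.56 and -0.73 at E14. CYP24A1 differed by -4.74 at E7 and -0.80 at E14, an age difference of -3.93 (SE 0.81, adjusted p = 0.0136). CKMT1B was lower at both ages, at -5.34 at E7 and -2.89 at E14, and IL13RA2 at -3.84 and -1.17. GNAT2 and VSX1, lower at E7, had values of 0.33 and 0.076 at E14, and the age difference of VSX1 was lost under 5 of 18 alternatives. COL1A1 and EGR1 were not called for an age difference, at -0.31 (SE 0.50) and 0.64 (SE 0.43). Of the 18 pigment genes, 3 passed the age test with higher values at E7, among them RAB38, which differed by 1.95 at E7 and 0.69 at E14.

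**Figure D5:**
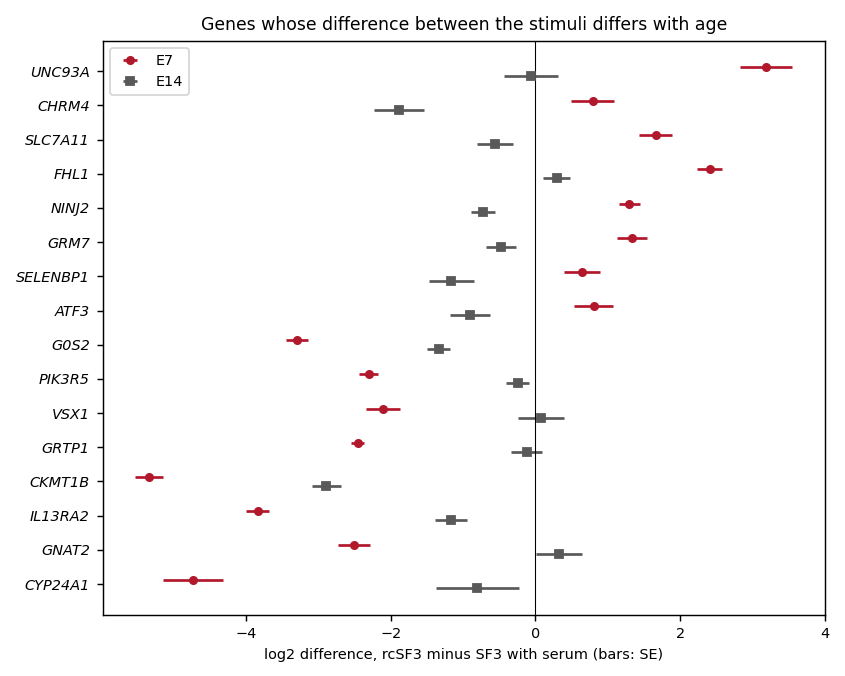
Log2 difference between rcSF3 and SF3 with serum (horizontal axis, bars are SE) in E7 (red circles) and E14 cultures (gray squares) for the 16 genes with the largest age differences, 8 in each direction. The E7 values of the upper 8 genes lie right of 0, and their E14 values lie left of 0 except that of FHL1 (0.30), while all lower 8 genes have negative values at E7.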

How the data were processed

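Total RNA was hybridised to Affymetrix chicken arrays, 1 array per biologic repeat. The deposited intensities are linear signals per probe set from the GeneChip Operating Software, which the authors had scaled per array: the mean after trimming 2% at each end was 500.12 on all 24 arrays. No source used here gives the software version or the background step. From 38535 probe sets, 96 controls were left out. Log2 signals were fitted with limma 3.58.1 (R 4.3.3, moderated with a mean-variance trend) over 12 E7 arrays in 4 groups. The age difference and the E14 comparison were fitted over 24 arrays in 8 groups. Benjamini-Hochberg adjustment covered all probe sets, at a threshold of 0.05. The platform annotation gave 1 symbol to 27168 probe sets, several to 177 and none to 11094, and 26853 matched RefSeq. Genes named are the 14 largest increases and decreases and the 8 largest age differences each way (signals under 100 raised to 100). Also named are up to 4 members per list with the lowest p, members that define a list, and genes named in the study's array text. The largest increases and decreases were taken only from called genes whose groups did not overlap, so their lack of overlap is no support. The age differences were taken from genes called for them. The members and lists were chosen with earlier results of these data known. The scripts were tested on simulated data. Alternatives were a replicate block, a brightness filter, raised signals, quantile normalization, other variance models, other sets of arrays and leaving out each replicate.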

Additional observations from a re-analysis of the deposited data

Results flagged for a closer look

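The difference between rcSF3 and serum itself differed between E7 and E14 cultures for these 16 named genes, tested with limma over all 24 arrays (3 per group) with Benjamini-Hochberg adjustment. The values are the log2 difference at E7 minus that at E14. Among genes with higher values at E7, UNC93A differed by 3.25, CHRM4, a muscarinic receptor, by 2.68, and SLC7A11 by 2.22. FHL1 differed by 2.11 and NINJ2 by 2.03. GRM7, a metabotropic glutamate receptor, differed by 1.81, SELENBP1, a selenium-binding protein, by 1.81, and ATF3, a stress-induced factor, by 1.71. CHRM4 was 0.79 at E7 and -1.89 at E14, and was not called at E7 alone. SELENBP1 was not called at E7 either, at 0.64. ATF3 lost the call of its age difference under 12 of 18 alternatives and SELENBP1 under 11 of 18. Among genes with lower values at E7, CYP24A1 differed by -3.93, GNAT2 by -2.84, IL13RA2 by -2.68 and CKMT1B by -2.45. GRTP1, named as a growth hormone regulated gene, differed by -2.34, VSX1 by -2.18, PIK3R5, a regulatory subunit of a PI3-kinase, by -2.06, and G0S2 by -1.96. GRTP1 was -2.46 at E7 and -0.12 at E14. The call of CYP24A1 was lost without the mean-variance trend and without moderation.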

How the results depend on the processing

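The number of probe sets called between rcSF3 and serum at E7 (8427) lay between 6537 and 8790 under 14 alternatives, and leaving out each replicate gave 6805 to 7577. Of 260 called genes that were followed through these alternatives, 221 kept the call under all 14. Many of them had been picked for a large difference or a low p in the main fit. This share therefore does not describe calls in general. After quantile normalization RLBP1 became -0.075 and GAPDH -0.019, neither called, and SLC2A1, not called before, became -0.16. SLC17A6, a glutamate transporter of neurons, became 0.0 with signals raised to 100, since all its signals were under 100. The age difference (535 probe sets, 44.11% higher at E7) moved to 163 without the mean-variance trend, with 32.52% higher, and to 340 without moderation, and to 237 to 537 when each replicate was left out. The number with a 95% interval inside 1.5-fold (6852) moved to 26265 with signals raised to 100, since dim probe sets then became equal by construction, and was 5956 to 6260 when replicates were left out, alternatives chosen after seeing the data. With the replicate number as a replicate block, 8697 probe sets were called at E7 and 609 for the age difference. Same-numbered samples of the compared groups did not deviate together (r of -0.062 to 0.0414, other numbers -0.1053 to 0.1377), so the numbers were not used as pairs in this comparison. In the 12 arrays that give the spread, same-numbered SF3 and rcSF3 samples did deviate together (r of 0.1433 to 0.1989, other numbers -0.1444 to -0.0369). Signals under 100, near background, limit what can be said of many channel, photoreceptor and immune genes.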
